A study of Mus musculus with 26 samples.

Results

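Alveolar type 1 cells are the thin, flat cells that cover most of the gas exchange surface of the lung, and their identity is commonly read from a small group of genes for surface proteins, a water channel, caveolae and cytoskeletal signalling. In the adult lung they arise from alveolar type 2 cells, the surfactant-producing cells from which many lung adenocarcinomas also start, through a transitional state rich in keratins. The genes described here are Hopx, Ager, Pdpn, Aqp5, Cav1, Akap5, Rtkn2, Clic5, Emp2 and Gprc5a. They are the 10 rows, of 55391 gene rows in the count table, whose symbol matched this list when letter case was ignored. The rule uses symbols and no measured value, though the list was chosen with earlier results of these data known.

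The data are RNA sequencing counts of EA1, EA2 and EA3, 3 mouse lung cancer lines whose genotype is labelled EML4-ALK, cultured with 100 nM alectinib, an inhibitor of the ALK kinase, or with DMSO as the vehicle control. All libraries therefore carry the fusion, and none is of normal lung or of alveolar type 1 cells. The lines were isolated from C57BL/6 mice. Each line is a single culture model, so the results describe these lines. Each line was sequenced once per treatment on days 1, 2, 3 and 5. This gives 24 libraries in 6 groups of 4, and the 4 days served as the replicates of a group. The p-values therefore measure a spread over days. For the effect of alectinib this is the spread of its difference from DMSO on the same day, pooled over the 3 lines. Nothing in the labels says that the days came from separate cultures.

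Library totals ran from 5780062 to 11732401 counts with a median of 9252878. A count of 3 or fewer was taken as the detection floor, which corresponds to 0.256 to 0.519 CPM, counts scaled to a library of 1000000 counts, and it covers counting error only. As a check of the treatment, Etv4, Dusp6 and Spry4, which are switched on by signalling downstream of ALK, fell in all 3 lines, with log2 fold changes between -7.06 and -2.34 and adjusted p no higher than 0.000101. Phlda1, the fourth gene of that list, fell in EA2 (-1.60, adjusted p = 0.00177) and measured -0.23 (adjusted p = 0.553) in EA1 and -0.38 (adjusted p = 0.33) in EA3. A further 2 libraries, labelled EA3 day 7, stood apart from their label. Their log2 CPM correlated across genes at 0.942 to 0.988 with the EA2 libraries of the same treatment and at 0.852 to 0.889 with those of EA3, so they were left out of the tests and their effect is given beside the calls that end when they are added. Among the others, the EA1 DMSO library of day 3 was the highest of its group for Cav1, Akap5 and Gprc5a and the lowest for Aqp5 and Rtkn2, and values without day 3 are given where they change a call. Because these are bulk samples, fewer cells of a type and less RNA per cell cannot be told apart.

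Markers of the lung epithelium were unevenly present in these cultures. Hopx, a small homeodomain protein that is among the most used markers of alveolar type 1 cells, had 0 counts in 20 of 24 libraries and at most 2 counts in the others. Nkx2-1, the lung lineage transcription factor, was at or under 3 counts in all libraries of 5 of the 6 groups. Of the alveolar type 2 markers, Sftpa1 had 0 counts in every DMSO library, and Sftpc had 0 counts in every DMSO library of EA2 and EA3. Others of that list were well detected with DMSO, such as Lpcat1, a surfactant lipid enzyme, at 36.2, 81.6 and 64.0 CPM in EA1, EA2 and EA3, and Abca3, the surfactant lipid transporter, at 40.3, 6.04 and 68.5 CPM. Epcam, an epithelial surface protein, averaged 1.35 CPM in EA1 with DMSO and 0.494 CPM in EA2 with DMSO, against 132 CPM in EA3. Cdh1, the epithelial cadherin, averaged 547, 65.3 and 645 CPM and the keratin Krt18 1854, 1618 and 1641 CPM with DMSO in EA1, EA2 and EA3. Gprc5a, Cav1, Aqp5 and Emp2, in contrast, were detected at 30.0 CPM or more in every library.

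On mouse genome build GRCm38 in GENCODE M21, Hopx lies at chr5:77086988-77115121 on the minus strand and Ager at chr17:34597862-34600936 on the plus strand. Pdpn lies at chr4:143267431-143299564 (minus) and Aqp5 at chr15:99590782-99594829 (plus). Rtkn2 lies at chr10:67979570-68059740 (plus) and Clic5 at chr17:44188584-44280172 (plus). Emp2 lies at chr16:10281749-10313968 (minus) and Gprc5a at chr6:135065651-135084709 (plus). Counts were taken over the exons of each gene, and of the 10 genes only Hopx and Rtkn2 share exon bases with another gene.

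**Figure D1:**
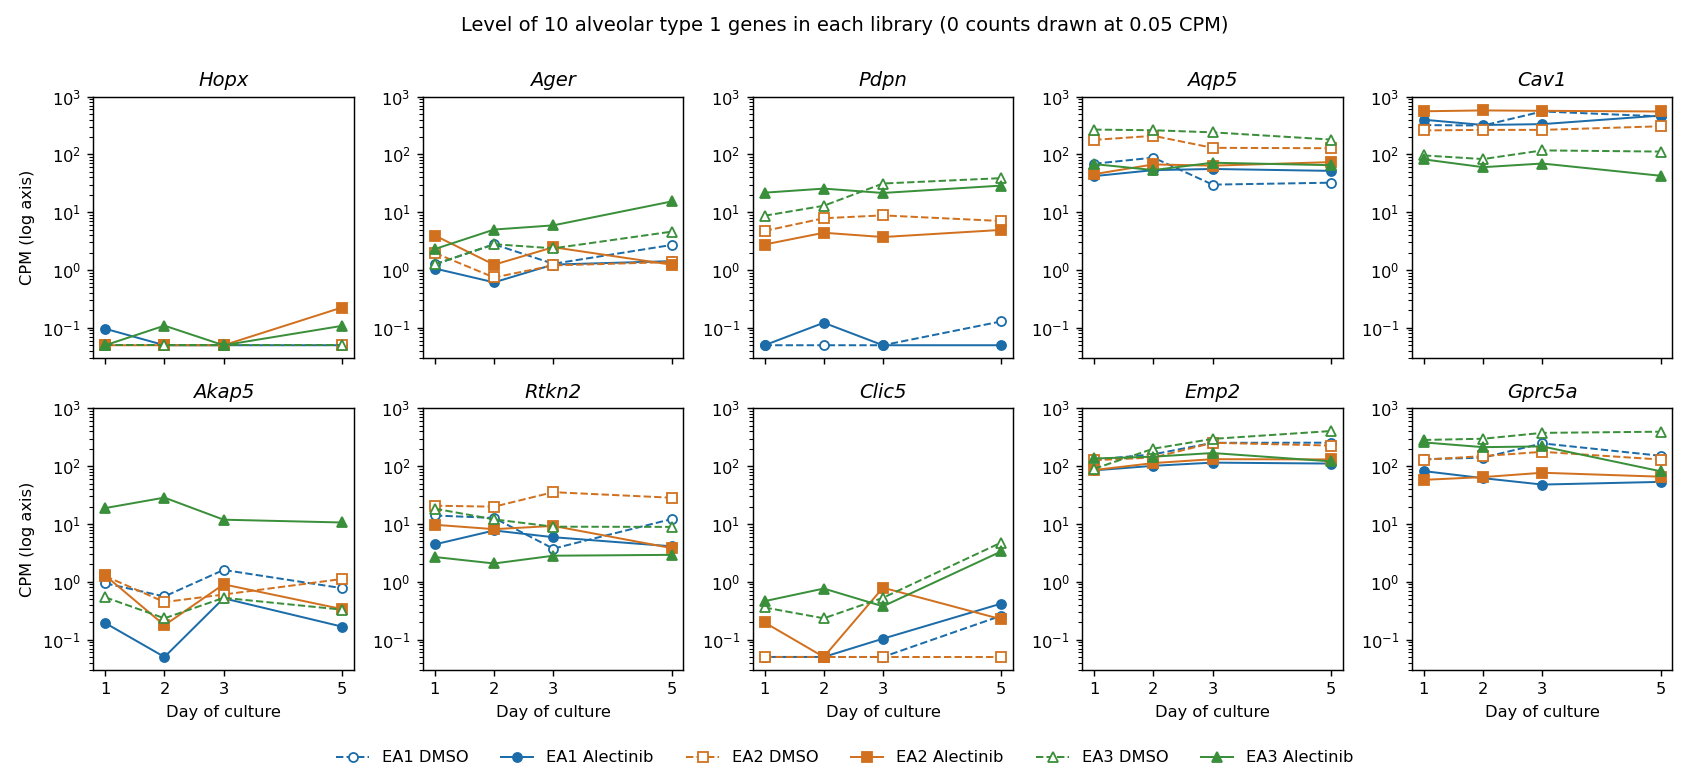
CPM of each of the 10 genes (log axis) against day of culture (days) in the 24 libraries, with DMSO as open symbols and dashed lines and alectinib as filled symbols and solid lines. Hopx lay at the floor throughout, and Akap5 in EA3 with alectinib, at 10.6 to 28.6 CPM, stood above all other Akap5 values.

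Compared per length, as CPM per kilobase of merged exons, the 10 genes covered a wide range in the DMSO cultures. Gprc5a, an orphan G protein-coupled receptor induced by retinoic acid, was at 80.6 ± 25.9 (SD, n = 4 days) in EA1, 70.3 ± 10.8 in EA2 and 162 ± 26.6 in EA3. Cav1, the main coat protein of caveolae, was at 119.6 ± 33.3, 79.8 ± 6.26 and 29.7 ± 4.53 CPM per kilobase in the same order. Cav1 led in EA1 and EA2 and Gprc5a led in EA3, and the intervals of 1 SD around Cav1 and Gprc5a overlapped in EA1, as did those around Cav1, Gprc5a and Aqp5 in EA2. The water channel Aqp5 reached 21.1 ± 10.9, 62.2 ± 15.3 and 91.7 ± 15.4 CPM per kilobase, and Emp2 23.1 ± 7.44, 21.7 ± 7.27 and 28.7 ± 15.5. Pdpn, Rtkn2, Ager, Akap5, Clic5 and Hopx were lower, all of them under 5 CPM per kilobase except Pdpn in EA3, at 12.6 ± 7.97.

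**Figure D2:**
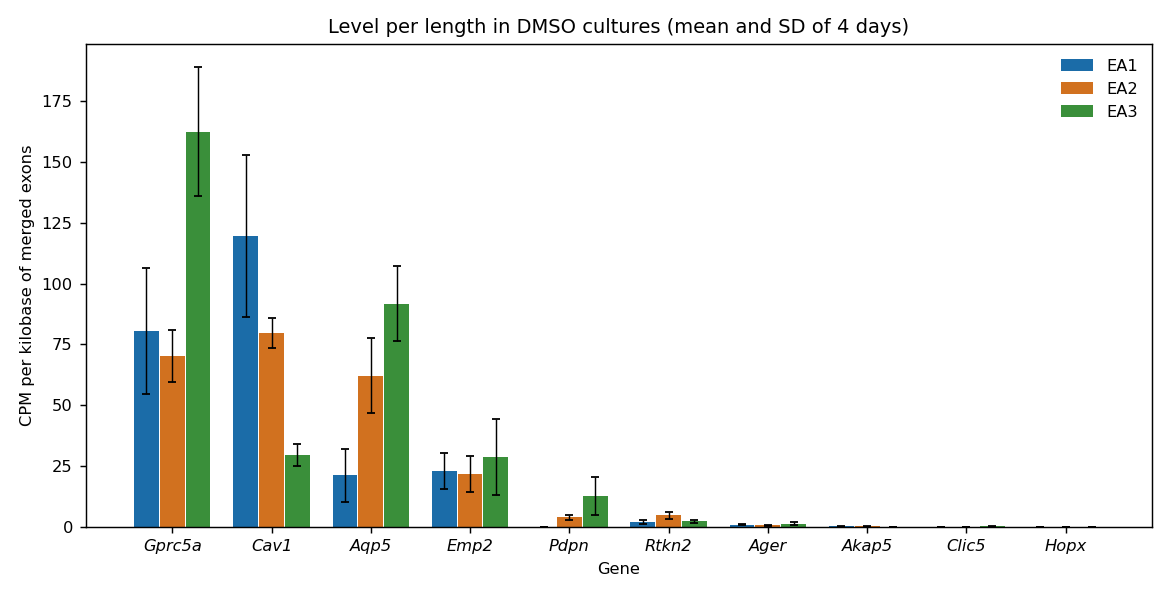
Mean CPM per kilobase of merged exons of each gene in the DMSO libraries of EA1, EA2 and EA3, with bars starting at 0 and error bars of 1 SD over 4 days. Gprc5a in EA3 was the highest bar, at 162, and Akap5, Clic5 and Hopx were close to 0 in all 3 lines.

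The levels without drug differed between the lines for 5 of the 8 genes that passed the filter on low counts, Pdpn, Aqp5, Cav1, Rtkn2 and Gprc5a, where 54.9% of all 14264 tested genes did so. Hopx and Clic5 did not pass that filter, and Pdpn and Akap5 passed it through the groups in which they were detected. Pdpn, podoplanin, the mucin-like surface glycoprotein long used to mark alveolar type 1 cells, had 0, 0, 0 and 1 counts in the EA1 DMSO libraries on days 1, 2, 3 and 5. It had 53, 53, 88 and 82 counts in EA2 and 97, 111, 238 and 236 counts in EA3. EA1 was thus at the floor on all 4 days, whereas EA2 and EA3 were above it on every day, and the filter could be passed only through those lines. Between EA3 and EA2 the Pdpn difference was 1.51 (95% confidence interval 0.81 to 2.20, adjusted p = 0.003) on the log2 scale.

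Aqp5 rose in the order EA1, EA2, EA3, with differences of 1.60 (95% confidence interval 1.15 to 2.06, adjusted p = 6.45e-05) between EA2 and EA1 and 0.61 (95% confidence interval 0.18 to 1.05, adjusted p = 0.0318) between EA3 and EA2. Cav1 ran the other way and was 4.03-fold lower in EA3 than in EA1, a log2 difference of -2.01 (95% confidence interval -2.38 to -1.64, adjusted p = 2.46e-06). Gprc5a was 2.04-fold higher in EA3 than in EA1 (adjusted p = 0.000599) and 2.36-fold higher than in EA2 (adjusted p = 0.000125). EA1 and EA2 were not told apart for Gprc5a, with a difference of -0.21 (95% confidence interval -0.57 to 0.16, adjusted p = 0.346). Rtkn2 was highest in EA2, 2.56-fold above EA1 (adjusted p = 0.0122), and its difference between lines had an adjusted p of 0.0127 with all 4 days and 0.0558 without day 5. The adjusted p between lines was 0.376 for Emp2, 0.254 for Ager and 0.135 for Akap5.

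The effect of alectinib was fitted per line with line and day as a block. In EA1, 3 of the 8 tested genes were lower with alectinib, Akap5, Emp2 and Gprc5a, and 0 were higher, while 14.6% of all tested genes were lower and 19% higher. In EA2, Aqp5, Rtkn2 and Gprc5a were lower and Cav1 was higher, that is 3 and 1 genes, against 11.3% and 13% of all tested genes. In EA3, Aqp5, Cav1, Rtkn2 and Gprc5a were lower and Ager and Akap5 were higher, 4 and 2 genes, against 15.1% and 17.5% of all tested genes. With scaling by library size alone, 64.8% of all changed genes in EA3 were higher, against 53.6% here, and the members still counted 4 lower and 2 higher. The 8 genes thus went in both directions, and Gprc5a alone was lower in all 3 lines, which held for 4.23% of all tested genes. With no filter on low counts Emp2 was also lower in all 3 lines (adjusted p = 1.44e-05, 0.00871 and 0.0112), and so was Rtkn2. Rtkn2 was lower in all 3 lines with no replicate block and without day 3 as well. None of the 8 was higher in all 3 lines, against 5.78% of all tested genes. The size of the effect differed between the lines for 3 of the 8, Cav1, Aqp5 and Akap5, the last having passed the filter through its high group, and for 6.84% of all tested genes. At an unadjusted p under 0.05, 4 of the 8 members passed in EA1, 6 in EA2 and 7 in EA3, against 44.9%, 36% and 42.9% of all tested genes. The 4 alectinib libraries lay entirely below the 4 DMSO libraries for 3 members in EA1, 3 in EA2 and 4 in EA3, against 13%, 12.5% and 10.7% of all tested genes. They lay entirely above for 0, 1 and 1 members, against 18.4%, 14.3% and 12.9%. Akap5 was in the EA1 and EA3 counts. With at least 10 counts in every library Akap5, Pdpn and Ager left the test. Of the 5 members then tested, 2 were lower in EA1, and 4 were lower and 0 higher in EA3. In that setting 3560 and 3537 of all 9851 tested genes changed in EA1 and EA3.

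**Figure D3:**
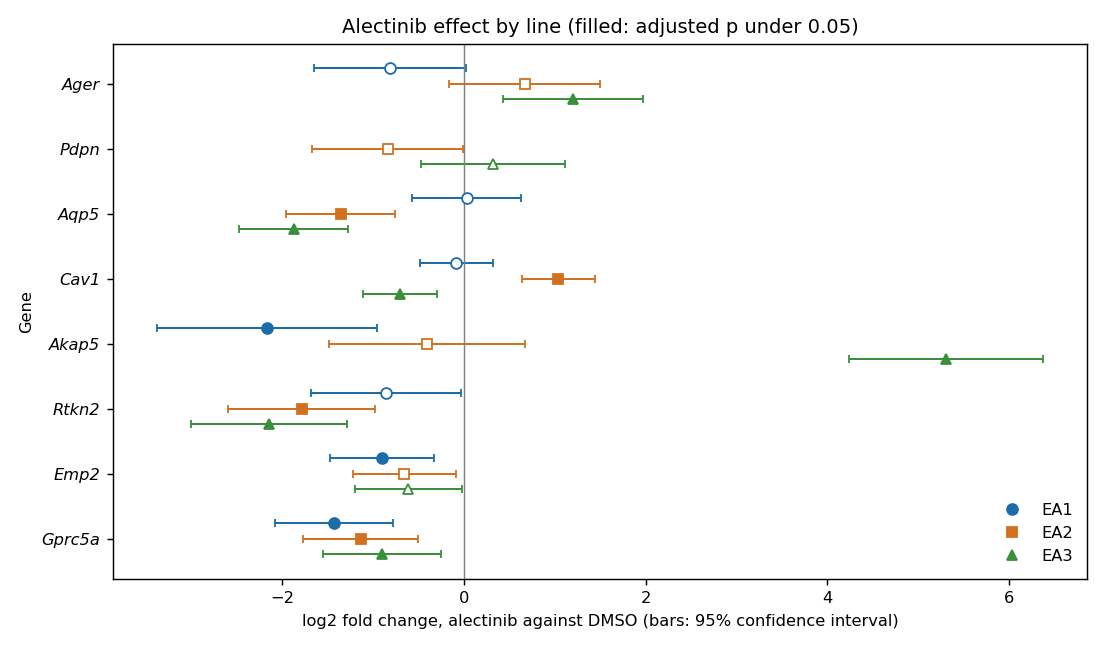
Fitted log2 fold change of alectinib against DMSO (x axis, log2 units) for the 8 tested genes in EA1, EA2 and EA3, with 95% confidence intervals and filled symbols where the adjusted p was under 0.05. Pdpn in EA1 is left out because it was at the floor. Akap5 spread from -2.17 in EA1 to 5.31 in EA3, and Gprc5a lay left of 0 in all 3 lines.

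Among the surface proteins, Gprc5a was lower with alectinib in all 3 lines. In EA1 it measured 132, 140.4, 248 and 151 CPM with DMSO and 82.1, 62.0, 48.1 and 53.5 CPM with alectinib on days 1, 2, 3 and 5. Every alectinib library was below every DMSO library, and the DMSO library of day 3 stood above the other DMSO days. The log2 fold change was -1.43 ± 0.30 (SE, adjusted p = 0.00308) with edgeR's quasi-likelihood test and Benjamini-Hochberg adjustment, and Gprc5a was lower on 4 of 4 days. In EA2 the values were 129, 149, 177 and 130.2 CPM with DMSO and 58.0, 64.7, 76.9 and 65.7 CPM with alectinib. Here the groups were again apart, with little change over the days, and the log2 fold change was -1.14 ± 0.30 (SE, adjusted p = 0.0125). In EA3 they were 284, 298, 377 and 395 CPM with DMSO and 258, 213, 219.6 and 81.6 CPM with alectinib. The EA3 groups did not overlap either, but day 5 fell far below the other alectinib days, and the log2 fold change was -0.90 ± 0.30 (SE, adjusted p = 0.0352). Some of these calls rested on single days. Without day 5 the EA3 value was -0.47 (adjusted p = 0.234). Leaving out day 2 or day 3 gave -1.09 (adjusted p = 0.0713) and -0.97 (adjusted p = 0.0613). In EA2 it was -1.12 (adjusted p = 0.063) without day 2. No difference between the lines was found for Gprc5a (adjusted p = 0.65), where EA3 and EA1 differed by 0.53 (95% confidence interval -0.38 to 1.44, adjusted p = 0.608).

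Aqp5, which lets water cross the apical membrane, was lower with alectinib in EA2 and EA3. In EA2 its level was 179, 209.7, 130.1 and 128 CPM with DMSO and 45.6, 67.2, 64.0 and 73.6 CPM with alectinib on days 1, 2, 3 and 5, and in EA3 it was 269, 262, 241 and 181 CPM with DMSO and 68.0, 53.7, 71.9 and 65.1 CPM with alectinib. In both lines all alectinib libraries were below all DMSO libraries, and with alectinib the levels of the lines came close to each other. The log2 fold change was -1.36 ± 0.28 (SE, adjusted p = 0.00307) in EA2, and -1.87 ± 0.28 (SE, adjusted p = 0.000309) in EA3, a 3.66-fold lower level. In EA1 the values were 69.1, 88.0, 30.0 and 32.4 CPM with DMSO and 42.2, 53.5, 56.0 and 51.9 CPM with alectinib. There the DMSO level was high on days 1 and 2 and low on days 3 and 5, the alectinib level stayed in between, and the groups overlapped. The EA1 log2 fold change was 0.03 ± 0.28 (SE, adjusted p = 0.949), higher on 2 and lower on 2 days. The test between lines gave an adjusted p of 0.0239, and the effects in EA3 and EA1 differed by -1.90 (95% confidence interval -2.75 to -1.06, adjusted p = 0.0277). EA2 and EA1 had an adjusted p of 0.0524, and EA3 and EA2 differed by -0.52 (95% confidence interval -1.34 to 0.31, adjusted p = 0.505). That test reached 0.0529 without day 2, 0.155 without day 3 and 0.0976 without day 5. With the libraries labelled EA3 day 7 added, at 68.5 CPM with DMSO and 121 CPM with alectinib, it reached 0.257.

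Ager, the receptor for advanced glycation end products, which is abundant on the basolateral side of alveolar type 1 cells, was scarce. In EA3 it had 14, 24, 18 and 28 counts with DMSO and 25, 46, 63 and 142 counts with alectinib on days 1, 2, 3 and 5, that is 1.26, 2.80, 2.37 and 4.61 CPM with DMSO and 2.31, 5.02, 5.93 and 15.4 CPM with alectinib. Alectinib was higher on 4 of 4 days and highest on day 5, although its day 1 value lay within the DMSO range. The log2 fold change was 1.20 ± 0.36 (SE, adjusted p = 0.0208). This call depended on single days, with 1.29 (adjusted p = 0.0518) without day 1, 1.14 (adjusted p = 0.0792) without day 3 and 1.01 (adjusted p = 0.12) without day 5. With the EA3 day 7 libraries added, at 2.78 CPM with DMSO and 2.03 CPM with alectinib, it was 0.85 (adjusted p = 0.086). In EA1 the counts were 12, 25, 12 and 21 counts with DMSO and 11, 5, 12 and 17 counts with alectinib, and in EA2 22, 5, 12 and 16 counts with DMSO and 40, 7, 22 and 11 counts with alectinib. Both lines had overlapping groups, with log2 fold changes of -0.82 ± 0.39 (SE, adjusted p = 0.12) in EA1, and 0.67 ± 0.39 (SE, adjusted p = 0.237) in EA2. The test between lines gave an adjusted p of 0.0673.

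Pdpn did not pass the threshold in any line. In EA1 it had 0, 0, 0 and 1 counts with DMSO and 0, 1, 0 and 0 counts with alectinib, both at the floor, so no ratio is given. In EA2 it was at 4.75, 7.88, 8.82 and 7.05 CPM with DMSO and 2.77, 4.42, 3.72 and 4.94 CPM with alectinib. Each alectinib library was below the DMSO library of its day, the ranges overlapped, and the log2 fold change was -0.84 ± 0.38 (SE, adjusted p = 0.134). EA3 measured 8.70, 12.9, 31.4 and 38.9 CPM with DMSO and 21.8, 25.6, 21.6 and 28.9 CPM with alectinib. The alectinib libraries stayed level, whereas the DMSO libraries climbed from below them on days 1 and 2 to above them on days 3 and 5. The EA3 log2 fold change was 0.32 ± 0.36 (SE, adjusted p = 0.528).

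Cav1 moved in opposite directions in EA2 and EA3. EA2 stood at 260.4, 266, 266 and 307 CPM with DMSO and 558, 577, 569 and 553 CPM with alectinib on days 1, 2, 3 and 5. All alectinib values were close to each other and well above all DMSO values, a 2.06-fold higher level with a log2 fold change of 1.04 ± 0.19 (SE, adjusted p = 0.0013). EA3, the line with the least Cav1, stood at 96.0, 83.2, 117 and 112 CPM with DMSO and 82.1, 60.2, 69.6 and 42.7 CPM with alectinib. Every alectinib value was below every DMSO value, and the gap was smallest on day 1 and largest on day 5. The EA3 log2 fold change was -0.70 ± 0.19 (SE, adjusted p = 0.0125), and without day 5 it was -0.48 (adjusted p = 0.113). EA1 stood at 322, 316, 554 and 455 CPM with DMSO and 398, 323, 334 and 470.4 CPM with alectinib. Its groups overlapped, with a log2 fold change of -0.08 ± 0.19 (SE, adjusted p = 0.758). The effect differed between the lines (adjusted p = 0.00516), by 1.12 (95% confidence interval 0.56 to 1.69, adjusted p = 0.0247) between EA2 and EA1 and -1.75 (95% confidence interval -2.32 to -1.17, adjusted p = 0.00426) between EA3 and EA2. The libraries labelled EA3 day 7 held 264 CPM of Cav1 with DMSO and 488 CPM with alectinib, both above every EA3 library of days 1, 2, 3 and 5. With them added the EA3 log2 fold change was -0.43 (adjusted p = 0.199) and the test between lines gave an adjusted p of 0.0703.

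The stretch upstream of Cav1 is shown because this gene moved in opposite directions in EA2 and EA3. The gene (ENSMUSG00000007655.16) spans chr6:17306335-17341452 on the plus strand of GRCm38 in GENCODE M21, with 7 merged exons of 3444 bases in all. The 250 bases before its first start site in RefSeq, at chr6:17306085-17306334 (GRCm38.p6, plus strand), read 5′ to 3′ as follows, with matches to a GC box or TATA box in capitals.
Cav1 upstream: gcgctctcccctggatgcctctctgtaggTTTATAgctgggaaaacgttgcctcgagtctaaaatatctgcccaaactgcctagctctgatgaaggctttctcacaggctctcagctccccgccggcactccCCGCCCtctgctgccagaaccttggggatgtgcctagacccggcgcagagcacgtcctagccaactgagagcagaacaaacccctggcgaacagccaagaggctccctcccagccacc
A GC box lay at -118 and TATA box letters at -221 from the start site, and the GC content was 59.6%. Motifs were searched on both strands as ETS (CCGGAA), AP-1 (TGANTCA), TEAD (GGAATG), NKX2-1 (CTCAAG), GC box (GGGCGG) and TATA box (TATAAA). Of 32851 mouse promoter windows of this length, 32.74% held the GC box and 12.37% the TATA box letters.

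Emp2, a tetraspan protein abundant in lung membranes, was lower with alectinib in EA1. It was at 129, 160.3, 253 and 255 CPM with DMSO and 84.6, 101, 115 and 111 CPM with alectinib on days 1, 2, 3 and 5. All alectinib values were below all DMSO values, and in both groups day 1 was lowest. The log2 fold change was -0.90 ± 0.26 (SE, adjusted p = 0.0185), and without day 3 it was -0.86 (adjusted p = 0.0971). EA2 was at 127, 141, 254 and 227 CPM with DMSO and 85.6, 113, 132 and 131 CPM with alectinib. The alectinib library was lower on 4 of 4 days but the ranges overlapped, with a log2 fold change of -0.66 ± 0.26 (SE, adjusted p = 0.0876). EA3 was at 90.2, 201, 296 and 405 CPM with DMSO and 136, 146, 169 and 121 CPM with alectinib. On day 1 alectinib was above DMSO, and on the later days it was below by a growing margin. The EA3 log2 fold change was -0.61 ± 0.27 (SE, adjusted p = 0.103), and without day 1 it was -1.01 (adjusted p = 0.0107). No difference between the lines was found, with an adjusted p of 0.819 and a difference of 0.25 (95% confidence interval -0.55 to 1.05, adjusted p = 0.726) between EA2 and EA1.

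Akap5, a scaffold that anchors protein kinase A and calcineurin at membranes, gave the largest fitted change of the 8 tested genes. In EA3 it had 6, 2, 4 and 2 counts with DMSO and 204, 262, 126 and 98 counts with alectinib on days 1, 2, 3 and 5, that is 0.538, 0.233, 0.528 and 0.330 CPM with DMSO and 18.8, 28.6, 11.9 and 10.6 CPM with alectinib. With DMSO it was at or near the floor on every day, and with alectinib it was far above the floor from day 1 on. The fitted log2 fold change was 5.31 ± 0.50 (SE, adjusted p = 1.13e-05), and a refit of the same counts with no filter gave 5.27. The DMSO counts are small, so that the daily ratios are wide, from 15.8 to 96.5-fold on day 1 and from 8.67 to 269-fold on day 5 as 95% counting intervals. EA3 with alectinib was the only group whose libraries were all above 10 CPM, so Akap5 passed the filter through the group in which it was high and its place in the counts of members is no support for them.

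In EA1 Akap5 had 9, 5, 15 and 6 counts with DMSO and 2, 0, 5 and 2 counts with alectinib. The alectinib counts were below the DMSO counts on each day and at the floor on 3 of 4 days, with a fitted log2 fold change of -2.17 ± 0.56 (SE, adjusted p = 0.00972). With the libraries labelled EA3 day 7 added to the fit, the adjusted p of Akap5 in EA1 was 0.0896. In EA2 it had 14, 3, 6 and 13 counts with DMSO and 13, 1, 8 and 3 counts with alectinib. These overlapped, with a log2 fold change of -0.40 ± 0.50 (SE, adjusted p = 0.598). The effect differed between the lines (adjusted p = 0.000267), by 7.47 (95% confidence interval 5.88 to 9.07, adjusted p = 0.00041) between EA3 and EA1 and 5.71 (95% confidence interval 4.19 to 7.23, adjusted p = 0.00113) between EA3 and EA2. These values come from a gene that passed the filter through EA3 with alectinib, where it was high, so they describe the counts just given. The day 7 libraries labelled EA3 had 9 counts with DMSO and 8 counts with alectinib. Akap12, a related kinase A anchor and paralog, was at 2.11 ± 1.06 CPM with DMSO and 44.9 ± 7.10 CPM with alectinib in EA3, and it rose in all 3 lines, with log2 fold changes of 4.26 ± 0.66 (adjusted p = 0.000398) in EA1, 5.24 ± 0.68 (adjusted p = 0.000111) in EA2, and 4.47 ± 0.50 (adjusted p = 4.42e-05) in EA3. With DMSO Akap12 averaged 0.242 CPM in EA1 and 0.157 CPM in EA2, under the floor, so the size of its change there is uncertain.

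Because Akap5 changed most, its upstream stretch is shown too. The gene (ENSMUSG00000021057.15) lies at chr12:76324891-76334153 on the plus strand of GRCm38, with 2 merged exons of 6824 bases. The 250 bases before its start in RefSeq, chr12:76324641-76324890 (GRCm38.p6, plus strand), are given 5′ to 3′ with the GC boxes in capitals.
Akap5 upstream: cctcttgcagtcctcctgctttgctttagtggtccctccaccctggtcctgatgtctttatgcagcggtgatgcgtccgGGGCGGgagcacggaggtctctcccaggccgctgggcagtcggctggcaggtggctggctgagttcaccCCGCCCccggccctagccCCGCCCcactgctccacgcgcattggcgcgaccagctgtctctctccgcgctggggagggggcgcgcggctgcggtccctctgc
The GC boxes lay at -171, -102 and -84 from the start site, and the GC content was 70.0%. RefSeq gave 10 such windows for 8 of the 10 genes, none for Rtkn2 and Gprc5a. The GC box letters stood in 5 of these 10 windows, the TATA box letters in 1 and the NKX2-1 letters in 1, against 32.74%, 12.37% and 13.33% of all windows. ETS, AP-1 and TEAD letters stood in 0 of 10, against 12.03%, 6.75% and 12.64%.

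Rtkn2 was lower with alectinib in EA2 and EA3. EA2 was at 20.7, 19.9, 35.5 and 28.4 CPM with DMSO and 9.68, 8.13, 9.25 and 3.82 CPM with alectinib on days 1, 2, 3 and 5, and EA3 at 18.4, 12.01, 8.97 and 8.90 CPM with DMSO and 2.68, 2.07, 2.82 and 2.92 CPM with alectinib. In both lines the groups were fully apart. The gap widened from day 1 to day 5 in EA2 and was widest on day 1 in EA3. The log2 fold change was -1.79 ± 0.38 (SE, adjusted p = 0.0038) in EA2, and -2.15 ± 0.40 (SE, adjusted p = 0.00133) in EA3. EA1 was at 14.0, 12.7, 3.74 and 12.1 CPM with DMSO and 4.44, 7.72, 5.90 and 4.11 CPM with alectinib. Its DMSO library of day 3 was the only DMSO library below the alectinib library of its day. The EA1 log2 fold change was -0.85 ± 0.39 (SE, adjusted p = 0.101), and -1.35 (adjusted p = 0.0338) without day 3. No difference between the lines was found (adjusted p = 0.258), with -1.29 (95% confidence interval -2.47 to -0.12, adjusted p = 0.281) between EA3 and EA1. Of its exon bases, 3.89% overlap Gm16212 on the other strand, and the strand setting of the counting is not given in the sources used here.

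**Figure D4:**
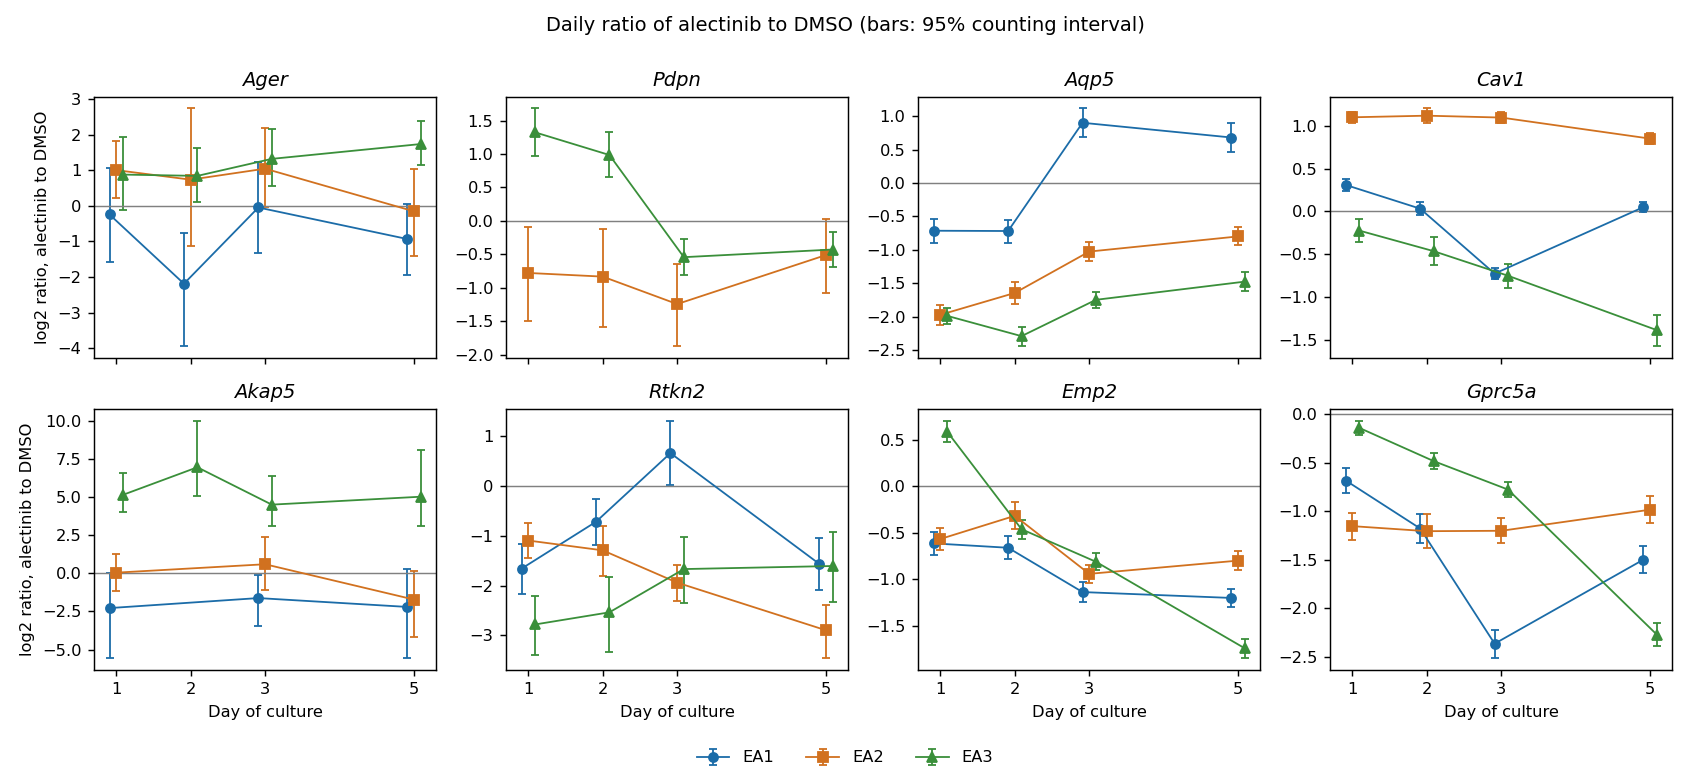
Log2 ratio of the alectinib to the DMSO library of the same day (y axis, log2 units) against day of culture for the 8 tested genes, with 95% counting intervals, for days on which 1 library at least was above the floor and neither was at 0. The Cav1 log2 ratio stayed between 0.85 and 1.12 in EA2 and went down to -1.39 on day 5 in EA3, and the Emp2 ratio in EA3 went from 0.59 on day 1 to -1.74 on day 5.

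Hopx and Clic5 stayed at or close to the floor. Hopx had 1 count in EA1 with alectinib on day 1, 2 counts in EA2 with alectinib on day 5 and 1 count each in EA3 with alectinib on days 2 and 5. All 12 DMSO libraries had 0, a level under the 0.267 to 0.454 CPM that 3 counts would give there. Of the Hopx exon bases, 27.18% overlap Hopxos on the other strand. Clic5, an intracellular chloride channel protein tied to the actin cytoskeleton, had 4, 2, 4 and 29 counts with DMSO and 5, 7, 4 and 31 counts with alectinib in EA3. In that line day 5 stood out in both treatments, and the daily log2 ratios were 0.36, 1.71, -0.49 and -0.51 on days 1, 2, 3 and 5. EA1 had 0, 0, 0 and 2 counts with DMSO and 0, 0, 1 and 5 counts with alectinib, and EA2 0, 0, 0 and 0 counts with DMSO and 2, 0, 7 and 2 counts with alectinib. Only 9 of the 24 libraries were above the floor, and Clic5 did not pass the filter. With no filter on low counts it passed the threshold for alectinib in EA2 and for the DMSO level between lines, on the counts just given.

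Change over days was fitted per doubling of days. With DMSO, Pdpn and Emp2 rose in EA3, by 1.01 ± 0.23 (SE, adjusted p = 0.0143) and 0.95 ± 0.14 (SE, adjusted p = 0.0024) on the log2 scale, 2 of the 8 tested genes against 5.69% of all tested genes rising. In EA1 and EA2 with DMSO the Emp2 slopes were 0.47 ± 0.13 (SE, adjusted p = 0.0562) and 0.44 ± 0.13 (SE, adjusted p = 1). The difference in slope between alectinib and DMSO did not pass the threshold for any of the 8 in any line, where 0%, 0% and 0.0631% of all tested genes passed it in EA1, EA2 and EA3. The smallest adjusted p was for Emp2 in EA3, with -0.97 (95% confidence interval -1.37 to -0.57, adjusted p = 0.0787). At an unadjusted p under 0.05, the slopes of 1 of the 8 differed in EA1, of 0 in EA2 and of 4 in EA3, against 8.22%, 3.81% and 10.1% of all tested genes. At the adjusted threshold edgeR passed Emp2 in EA3 with no filter on low counts, and Emp2 and Gprc5a in EA3 without day 3. DESeq2 passed 0, 0 and 1 member, Emp2 in EA3, against 0.351%, 0.112% and 1.12% of all tested genes. For Aqp5 in EA1 the slopes differed by 0.74 (95% confidence interval 0.18 to 1.31, adjusted p = 0.496), with the DMSO level going down and the alectinib level staying in place.

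Over the 24 libraries the members did not form 1 block. On log2 CPM the highest correlation was between Emp2 and Gprc5a (r = 0.67) and the lowest between Pdpn and Cav1 (r = -0.69). These are descriptions, since the 24 points share lines, days and treatments. The tested genes whose pattern was most like that of Gprc5a were, with symbols spelled as in the count table, Galnt3 (r = 0.93) and Slc35C2 (r = 0.93), which kept an r of 0.78 to 0.97 within each line. For Emp2 they were Rem2 (r = 0.91) and Pgf (r = 0.89), with 0.74 to 0.96 within lines, and for Rtkn2 Sms (r = 0.90) and Ube2T (r = 0.90), with 0.80 to 0.94 within lines. For Aqp5 they were Sh2D1B1 (r = 0.90) and Slc14A1 (r = 0.89), with 0.40 to 0.94 within lines. For Cav1 they were Runx3 (r = 0.93) and Adcy7 (r = 0.93), with -0.56 to 0.90 within lines. The pairs of Pdpn, Slc38A1 (r = 0.97) and Susd4 (r = 0.97), had an r of 0.75 and -0.36 within EA2 and of -0.22 and 0.81 within EA3, and within EA1 Pdpn was at the floor. Those of Akap5 were Afap1L2 (r = 0.86) and Mmp16 (r = 0.85), with -0.33 to 0.93 within lines, and those of Ager Dkk3 (r = 0.85) and Cnih2 (r = 0.84), with -0.10 to 0.96 within lines.

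Other genes known from alveolar type 1 cells, a list chosen with earlier results of these data known, gave more rises than falls. Of 24 such genes, 20 were tested, and 6 rose and 1 fell in EA1, 7 rose and 0 fell in EA2, and 10 rose and 1 fell in EA3. The gene that fell was Vegfa, with -1.31 ± 0.47 (adjusted p = 0.0482) in EA1 and -1.61 ± 0.46 (adjusted p = 0.018) in EA3. Of all tested genes 19%, 13% and 17.5% rose and 14.6%, 11.3% and 15.1% fell in EA1, EA2 and EA3, and the counts of the lists that follow stand beside the same shares. The 20 genes had median log2 fold changes of 0.47, 0.78 and 0.79, against 0.06, 0.00 and 0.07 over all tested genes. Col4a3, a chain of the alveolar basement membrane collagen, was at 5.59 ± 1.95 CPM with DMSO and 58.8 ± 27.2 CPM with alectinib in EA3, a log2 fold change of 3.31 ± 0.28 (adjusted p = 8.81e-06), and never exceeded 4 counts in EA1 or 2 counts in EA2. Pmp22, a tetraspan relative of Emp2, rose in all 3 lines, by 2.84 ± 0.35 (adjusted p = 7.04e-05) in EA1, 1.78 ± 0.34 (adjusted p = 0.00184) in EA2, and 3.31 ± 0.34 (adjusted p = 2.60e-05) in EA3. Lmo7, an adherens junction protein, also rose in all 3, by 1.02 ± 0.19 (adjusted p = 0.00144) in EA1, 2.18 ± 0.20 (adjusted p = 1.10e-05) in EA2, and 1.08 ± 0.19 (adjusted p = 0.00107) in EA3. Sema3b, a secreted semaphorin, rose in EA3 by 2.42 ± 0.22 (adjusted p = 8.81e-06), and had 0.45 ± 0.19 (adjusted p = 0.0876) in EA1. Pmp22 and Lmo7 thus rose in the lines in which Gprc5a fell.

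Among 13 tested regulators of alveolar type 1 fate, 4 rose and 2 fell in EA1, 2 rose and 1 fell in EA2, and 2 rose and 4 fell in EA3, with median log2 fold changes of 0.17, -0.09 and 0.35. Klf5, a transcription factor that favours the alveolar type 1 fate, fell in all 3 lines, with log2 fold changes of -0.96 ± 0.27 (adjusted p = 0.0144) in EA1, -0.97 ± 0.27 (adjusted p = 0.0174) in EA2, and -1.28 ± 0.28 (adjusted p = 0.00347) in EA3. Foxa2, a forkhead factor of the lung epithelium, fell in EA3, with -1.63 ± 0.24 (adjusted p = 0.000292). Tead1, a DNA-binding partner of YAP and TAZ, rose in EA3 with 0.82 ± 0.17 (adjusted p = 0.00268), and Foxa1 rose in EA1 with 0.85 ± 0.16 (adjusted p = 0.00185) and in EA3 with 0.57 ± 0.16 (adjusted p = 0.0173).

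Of the 6 tested caveola genes other than Cav1, 4 rose and 1 fell in EA1, 1 rose and 0 fell in EA2, and 1 rose and 1 fell in EA3, with medians of 0.96, 0.25 and 0.21. Cavin2, a caveola coat protein, rose in all 3 lines, by 2.67 ± 0.22 (adjusted p = 4.99e-06) in EA1, 2.25 ± 0.21 (adjusted p = 1.33e-05) in EA2, and 1.77 ± 0.21 (adjusted p = 6.44e-05) in EA3. Cav2, the partner of Cav1 in the caveolin coat, fell in EA1 and EA3, with -0.74 ± 0.13 (adjusted p = 0.001) and -0.89 ± 0.13 (adjusted p = 0.000302), and measured -0.01 ± 0.13 (adjusted p = 0.968) in EA2. Cavin1 and Cavin3 rose in EA1, by 0.84 ± 0.17 (adjusted p = 0.0024) and 1.33 ± 0.28 (adjusted p = 0.00317). In EA2, the line in which Cav1 rose, Cavin1 was at 0.43 ± 0.17 (adjusted p = 0.0859), and Cavin3 at 0.49 ± 0.28 (adjusted p = 0.221). Among 13 tested paralogs of the members, EA1 had 4 rising and 2 falling, EA2 had 3 rising and 3 falling, and EA3 had 6 rising and 3 falling, with medians of 0.55, 0.33 and -0.15. Clic4, the relative of Clic5, was at 203 ± 54.7 CPM with DMSO and 284 ± 66.0 CPM with alectinib in EA3 and rose in all 3 lines, with log2 fold changes of 0.49 to 0.62. Emp1, the relative of Emp2, fell in all 3 lines, with log2 fold changes of -0.56 ± 0.17 (adjusted p = 0.0234) in EA1, -0.80 ± 0.17 (adjusted p = 0.00426) in EA2, and -1.75 ± 0.18 (adjusted p = 2.14e-05) in EA3. The EA1 call of Emp1 was lost without day 2 (adjusted p = 0.0730) or day 3 (adjusted p = 0.109).

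**Figure D5:**
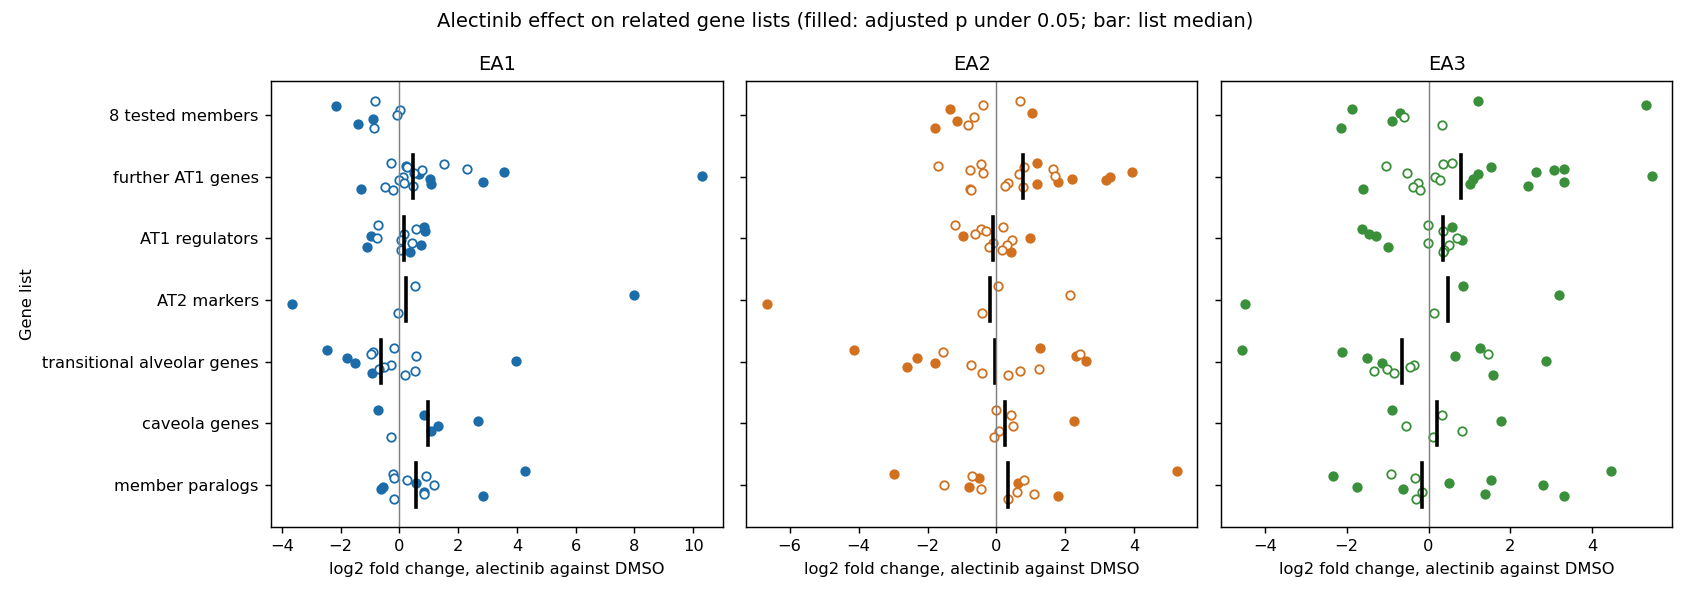
Fitted log2 fold change of alectinib against DMSO (x axis, log2 units) for every tested gene of 7 lists (rows) in EA1, EA2 and EA3, with filled points where the adjusted p was under 0.05 and a black bar at the median of each list except the members. Further alveolar type 1 genes had medians of 0.47 to 0.79, and the members and transitional genes had points on both sides of 0 in EA1, EA2 and EA3.

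The neighbouring alveolar states gave mixed changes. Of 12 alveolar type 2 markers only 4 were tested. Etv5, which is also a target of the pathway below ALK, fell in all 3 lines, with log2 fold changes of -3.66 ± 0.36 (adjusted p = 1.40e-05) in EA1, -6.66 ± 0.43 (adjusted p = 1.64e-06) in EA2, and -4.49 ± 0.38 (adjusted p = 5.61e-06) in EA3. Cxcl15, a lung chemokine, rose in EA1 by 7.98 ± 0.65 (adjusted p = 4.99e-06) and in EA3 by 3.19 ± 0.56 (adjusted p = 0.000926), Abca3 rose in EA3 by 0.85 ± 0.24 (adjusted p = 0.0169), and Lpcat1 did not pass the threshold in any line. The EA1 rise of Cxcl15 started from 0.424 CPM with DMSO, near the floor. Of 14 transitional genes, 1 rose and 4 fell in EA1, 3 rose and 4 fell in EA2, and 4 rose and 4 fell in EA3, with medians of -0.61, -0.04 and -0.64. Areg and Hbegf, both EGF receptor ligands, fell in all 3 lines, Areg with log2 fold changes of -2.47 ± 0.32 (adjusted p = 0.0001) in EA1, -4.14 ± 0.36 (adjusted p = 7.87e-06) in EA2, and -4.56 ± 0.36 (adjusted p = 3.95e-06) in EA3. Hbegf had log2 fold changes of -1.80, -2.31 and -1.50 in the same order. Itgb6, an integrin subunit, rose in all 3 lines, with 3.95, 2.59 and 2.88. With DMSO Itgb6 averaged 0.338 CPM in EA1 and 0.359 CPM in EA2, near the floor.

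Genes of other cell types moved in the same cultures, and their part in the changes of the members was not tested. Of 8 fibroblast markers, 6 were tested, and 5, 3 and 4 rose in EA1, EA2 and EA3, none falling. Their summed level was 5.34 to 26.4 CPM with DMSO and 61.8 to 389 CPM with alectinib in EA1, 62.6 to 75.5 CPM with DMSO and 123 to 242 CPM with alectinib in EA2, and 16.5 to 23.5 CPM with DMSO and 85.8 to 273 CPM with alectinib in EA3, and Tcf21 was at 0 in every group. The highest of them on the mean over all 24 libraries were Col1a1, Col3a1 and Dcn, although their order differed between lines, with Col1a2 above Col1a1 and Col3a1 in EA2 and Col6a3 above all 3 in EA1 with DMSO. Col1a1 was at 12.4 ± 3.95 CPM with DMSO and 133 ± 42.8 CPM with alectinib in EA3. The 6 lymphatic and mesothelial markers, which share Pdpn with alveolar type 1 cells, summed to 361 to 489 CPM with DMSO and 739 to 1164 CPM with alectinib in EA3, most of it Msln, with Wt1 at 0. In EA1 that sum was 83.7 to 211 CPM with DMSO and 116 to 237 CPM with alectinib, while Pdpn was at the floor. In EA2 it was 278 to 383 CPM with DMSO and 363 to 670 CPM with alectinib, while Pdpn was lower on 4 of 4 days. Flt4, a receptor of lymphatic endothelium, went from 14.1 to 1.81 CPM in EA2 (adjusted p = 0.000232) and from 37.6 to 83.0 CPM in EA3 (adjusted p = 0.0191). The 7 endothelial markers summed to at most 9.89 CPM in any library, with Cldn5 at 0 in every group. The 5 basal markers summed to at most 70.0 CPM, in EA1 with alectinib, with Krt5 at 0 in every group. The 6 club and ciliated markers summed to 3.56 to 10.5 CPM with DMSO and 25.2 to 83.0 CPM with alectinib in EA3, with Foxj1 the most abundant and Scgb3a2 at 0. The 6 leukocyte markers summed to at most 94.1 CPM, mainly Cd68, with Lyz1 at 0 in every group. The 6 epithelial markers summed to 1596 to 2316 CPM with DMSO and 453 to 863 CPM with alectinib in EA2, where Krt8 and Krt18 fell, with log2 fold changes of -2.61 ± 0.39 (adjusted p = 0.000352) and -1.79 ± 0.33 (adjusted p = 0.00153). Krt18 also fell in EA1 (-1.51, adjusted p = 0.00387) and in EA3, with -1.13 (adjusted p = 0.0175), and Epcam rose in EA1 (2.45, adjusted p = 0.00497). Cdh1, of the same list, rose in both EA2 and EA3, with log2 fold changes of 1.55 (adjusted p = 0.000116) and 0.65 (adjusted p = 0.0237). They summed to 3969.8 to 7187 CPM with DMSO and 2438 to 4271 CPM with alectinib in EA1 and to 3383 to 4732 CPM with DMSO and 2279.9 to 4792 CPM with alectinib in EA3.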

How the data were processed

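Murine EML4-ALK lines were profiled by stranded poly(A) RNA sequencing. Per the labels and the study's methods, the authors checked reads with FastQC, trimmed adapters, aligned them to mm10 with STAR and deposited unnormalized counts per gene symbol from the aligner's own counter. The submitters' processing notes also name edgeR. The versions, the annotation release and the strand setting are not given in the sources used here. The deposited table had 55415 rows, of which 24 carried a date in place of a symbol (0.129% to 0.201% of the counts of a library) and were left out.

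Members were matched by symbol, and exon lengths and coordinates came from GENCODE M21. The 10 genes, the other lists and the rules for naming genes were chosen with earlier results of these data known. All 10 members were named, and from each other list up to 4 tested genes of at least 2 log2 CPM with the smallest p over the 3 lines (for markers of other cell types, the 3 most abundant). For each member of at least 1 CPM, the 2 tested genes with the highest Pearson correlation of log2 CPM (prior count 2) were listed. Counts were analysed with edgeR 4.0.16 in R 4.3.3, with TMM factors, filterByExpr by line and treatment (14264 genes kept) and the robust quasi-likelihood test. Adjusted p-values follow Benjamini and Hochberg over all tested genes, with a threshold of 0.05. The fit of the alectinib effect held 12 blocks, each a line and a day, since the labels give DMSO and alectinib libraries the same day. Their deviations from the group means correlated between -0.3 and 0.549, above 0.1 in 6 of 12 pairs. DMSO levels were compared with day as a term, and slopes were fitted on log2 of the day. Alternatives were DESeq2 1.42.0, other scalings and filters, no replicate block, each line alone, all 26 libraries and leaving out each day. CPM are TMM-scaled over the 24 libraries. Counting intervals are exact at 95%. Scripts were tested on simulated data. Drawings used matplotlib 3.10.9.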

Additional observations from a re-analysis of the deposited data

Results flagged for a closer look

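In a group of 4 libraries, 1 library can stand far from the other 3, by Dixon's ratio of gap to range at the 95% level. Of 50 groups examined 4 were marked, and chance marks about 1 in 20. Cav1 in EA2 with DMSO was at 307 CPM on day 5, above the other days at 260.4 to 266 CPM. Gprc5a in EA1 with DMSO was at 248 CPM on day 3, above the other days at 132 to 151 CPM. Clic5 in EA3 was at 4.78 CPM with DMSO and 3.35 CPM with alectinib on day 5, with 29 and 31 counts, while the other days had at most 7 counts.

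The alectinib effect differed between the lines by edgeR's quasi-likelihood test of the difference itself for Akap5 (adjusted p = 0.000267), Cav1 (adjusted p = 0.00516) and Aqp5 (adjusted p = 0.0239), 3 of 8 tested members against 6.84% of all tested genes, Akap5 having passed the filter on low counts through EA3 with alectinib, where it was high. Akap5 was higher on 4 of 4 days in EA3 and lower on 4 of 4 in EA1, Cav1 was higher on 4 of 4 days in EA2 and lower on 4 of 4 in EA3, and Aqp5 was lower on 4 of 4 days in EA2 and in EA3 and on 2 of 4 in EA1.

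Outside the tested libraries, the alectinib library labelled EA3 day 7 held 488 CPM of Cav1. The EA3 alectinib libraries of days 1 to 5 held 42.4 to 80.9 CPM and those of EA2 held 536 to 567 CPM on the same scale, and the EA3 day 7 library with DMSO held 264 CPM.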

How the results depend on the processing

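Of the 91 recomputed counts of members, 86 stayed within 1.5 times the count reported, and of 268 recomputed log2 fold changes of members, 236 kept their direction and side of the threshold. Leaving out 1 day at a time gave 3 to 3 members changed in EA1, 3 to 4 in EA2 and 3 to 6 in EA3, with 3 (Akap5, Aqp5 and Rtkn2) without day 5. The same step gave 2 to 3 members between lines, 4 to 5 for the DMSO level and 0 to 2 for the EA3 slope, with 2 (Emp2 and Gprc5a) without day 3. That slope count was 1 (Emp2) with DESeq2 and 1 (Emp2) with no filter on low counts. With all 26 libraries the count between lines was 1 (Akap5), and Akap5 in EA1 had an adjusted p of 0.0896. Ager and Cav1 in EA3 also lost their calls there, while Emp2 in EA3 passed. With each line fitted alone Gprc5a in EA3 had an adjusted p of 0.0722, while Pdpn and Emp2 in EA2 passed. With no filter on low counts 4 members changed in EA1 (Rtkn2 added), 6 in EA2 (Emp2 and Clic5 added) and 7 in EA3 (Emp2 added). With no replicate block the counts were 4 in EA1 (Rtkn2 added), 4 in EA2, 6 in EA3, 3 between lines and 5 for the DMSO level.

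Directions turned only for values not past the threshold. For Aqp5 in EA1 the log2 fold change was -0.0287 with no filter, -0.11 with no replicate block, -0.0465 with all 26 libraries, -0.0280 with the line fitted alone, and -0.30 and -0.24 without day 3 and day 5. For Cav1 in EA1 it was 0.00574 with library size alone and 0.0926 without day 3. It was -0.0241 for Pdpn in EA3 without day 1, 0.0276 for Akap5 in EA2 without day 5 and 0.0201 for Cav2 in EA2 without day 2. The causes were not tested.

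Over all genes, library size alone in place of TMM moved the median log2 fold change from 0.07 to 0.18 in EA3 and the share of higher among changed genes from 53.6% to 64.8%. The effect differed between lines for 976 genes, for 1963 with DESeq2, 2698 of the 33394 genes left with no filter, 400 with all 26 libraries and 215 to 644 without day 2, 3 or 5. Slope differences passed for 0, 0 and 9 genes in EA1, EA2 and EA3, for 50, 16 and 160 with DESeq2, for 244, 112 and 269 with no filter and for 52, 25 and 196 without day 3. The EA3 count was 1 with all 26 libraries, 1 with the line fitted alone and 0 without day 1, 2 or 5, and the EA1 count was 2 with the line fitted alone. Without day 3 the count was 2803 in place of 4791 for EA1 and 2155 in place of 3475 for EA2, and without day 2 it was 2835 in place of 4650 for EA3. With at least 10 counts in every library, 9851 genes remained, 5066 in place of 7829 differed in DMSO level, and Akap5, Pdpn and Ager left the test. Depth limits what can be said of Hopx, Clic5 and Akap5, which had at most 15 counts in any DMSO library except Clic5 on day 5 in EA3.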

Other observations

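The libraries labelled EA3 day 7 entered the fits only as an alternative with all 26 libraries. On the scale of all 26 libraries, Aqp5 was at 68.5 CPM with DMSO and 121 CPM with alectinib, a reversed order from the EA3 libraries of days 1 to 5, which ran from 184 to 279 CPM and from 53.0 to 72.0 CPM. Gprc5a was at 142 CPM with DMSO and 54.2 CPM with alectinib, and Rtkn2 at 22.2 and 2.54 CPM. Emp2 was at 268 and 141 CPM, Pdpn at 9.59 and 9.24 CPM and Ager at 2.78 and 2.03 CPM. Hopx had 0 and 3 counts, Clic5 had 1 and 2 counts and Akap5 had 9 and 8 counts.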
